A study of Mus musculus with 48 samples.

Results

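Radial glia are the elongated progenitors of the embryonic neural tube, and 10 of their genes were followed here through the neuronal differentiation of mouse embryonic stem cells with and without the histone acetyltransferases KAT6A and KAT6B. The 10 genes are Rfx4, Mir9-3hg, Fabp7, Slc1a3, Prom1, Hopx, Nes, Vim, Tnc and Ptprz1. They were taken by symbol from a table of 36935 genes and were chosen with their levels in these same libraries known. They were selected on the difference of KAT6B_KO and KAT6AB_KO from E14 at day 15 and the E14 levels at day 15 against earlier days. These comparisons are a description: calls are counted beside the share over all genes, no p is given, and nothing is read from them. The comparison of KAT6A_KO with E14 at day 15 shares the E14 libraries of that choice, so its p-values are not free of it.

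E14 is a wild-type mouse embryonic stem cell line, and the other genotypes are knockouts of Kat6a (KAT6A_KO), of Kat6b (KAT6B_KO) and of both genes (KAT6AB_KO, the double knockout). Each of the 4 genotypes was sampled at days 0, 2, 6 and 15 with 3 libraries per group, giving 16 groups and 48 libraries. Day 0 is the stem cell in serum with LIF. At days 2 and 6 the cells were embryoid bodies without LIF, those of day 6 with 10 µM all-trans retinoic acid since day 4, and by day 15 they had been dissociated and plated (day 8) on poly-D-lysine and laminin. Every genotype received the same sequence of treatments. The labels do not say how the alleles were made or how many clones stand behind a knockout line, so line and genotype cannot be told apart. The libraries of a group are numbered replicates, and p-values measure the spread between them only.

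Radial glia line the ventricle, send a long fibre to the outer surface of the brain and give rise to neurons, either directly or through intermediate progenitors, and later to astrocytes. They are recognised by lipid and glutamate handling proteins of the glial lineage (Fabp7, Slc1a3), by intermediate filaments (Nes, Vim), by surface proteins (Prom1, Ptprz1) and by matrix (Tnc). Rfx4 is a winged-helix transcription factor of the RFX family, which bind the X-box and regulate genes of the cilium. Mice lacking it have defects of the dorsal midline of the brain. Mir9-3hg is the long transcript that carries the hairpin of miR-9, a conserved microRNA of neural progenitors that represses, among others, the progenitor regulators Nr2e1 and Hes1. KAT6A and KAT6B are the catalytic subunits of related histone H3 acetyltransferase complexes.

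The sequences carried by the Mir9-3hg locus are shown because the count of Mir9-3hg is that of the host transcript and not of the microRNA. In RefSeq for GRCm38.p6, the hairpin Mir9-3 lies at chr7:79505264-79505353 on the plus strand, inside the host gene (chr7:79500026-79534403). Both mature forms are identical at the 3 miR-9 loci of the mouse. In the mature forms the capitals mark the seed, bases 2 to 8, and in the hairpin they mark the 2 mature arms.
miR-9-5p: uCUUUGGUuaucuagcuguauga
miR-9-3p: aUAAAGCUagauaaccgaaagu
Mir9-3 hairpin: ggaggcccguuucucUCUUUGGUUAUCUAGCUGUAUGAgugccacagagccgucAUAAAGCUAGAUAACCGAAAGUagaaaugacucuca
The mature forms themselves were not analysed here.

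The 250 bases before the start are shown for 3 of the members that held a match to a motif described here, Fabp7, Mir9-3hg and Hopx. In RefSeq for GRCm38.p6 they lie at chr10:57784673-57784922 (plus strand), chr7:79499776-79500025 (plus strand) and chr5:77095268-77095517 (minus strand), in that order. Capitals mark TGGGAA, the core bound by RBPJ, the DNA-binding partner of Notch, or GTTGCC, a half-site of the X-box bound by RFX factors, on either strand.
Fabp7: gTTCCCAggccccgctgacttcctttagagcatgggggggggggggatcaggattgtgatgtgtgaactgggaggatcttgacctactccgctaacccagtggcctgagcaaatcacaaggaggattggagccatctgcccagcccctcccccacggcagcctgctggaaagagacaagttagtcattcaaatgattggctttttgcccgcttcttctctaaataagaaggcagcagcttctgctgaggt
Mir9-3hg: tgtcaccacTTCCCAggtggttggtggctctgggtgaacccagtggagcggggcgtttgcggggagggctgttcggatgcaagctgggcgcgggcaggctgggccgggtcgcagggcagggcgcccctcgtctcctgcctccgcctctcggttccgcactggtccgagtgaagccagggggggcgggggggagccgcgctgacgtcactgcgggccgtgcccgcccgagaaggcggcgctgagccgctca
Hopx: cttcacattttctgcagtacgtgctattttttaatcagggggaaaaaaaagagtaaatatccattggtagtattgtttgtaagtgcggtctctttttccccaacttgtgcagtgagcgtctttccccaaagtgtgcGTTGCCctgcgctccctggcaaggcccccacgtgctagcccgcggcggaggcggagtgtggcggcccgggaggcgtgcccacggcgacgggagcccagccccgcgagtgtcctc
The Fabp7 match to the RBPJ core starts 249 bases before the start of the gene and that of Mir9-3hg 241 bases before it, both on the minus strand. The Hopx match to the RFX half-site starts 114 bases before it. The 10 members have 15 such windows, since some have more than 1 start, and a further Mir9-3hg window held neither motif. TGGGAA was in 5 of the 15 windows (of Fabp7, Mir9-3hg, Prom1 and Tnc) and GTTGCC in 2 of the 15 (both of Hopx). Windows of Slc1a3, Rfx4, Ptprz1, Nes and Vim held neither. Whether a match goes with the level of a gene in the knockouts was not tested. Of all 32851 windows of this length, 21.6% held TGGGAA and 10.4% held GTTGCC on at least 1 strand. A match of these letters is a description and was not tied to binding.

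Library totals lay between 22.5 and 72.3 M counts (mega counts), and all 10 genes passed the filter on low counts in every fit. The spread between replicates widened with time, from a biological coefficient of variation of 19.3% at day 0 to 37.8% at day 15. Kat6a counts in the libraries labelled KAT6A_KO had group means of 50.0% to 67.5% of E14 and were below every E14 library of the same day in 12 of 12, and in KAT6AB_KO the means were 60.1% to 75.6% with 12 of 12 below. Kat6b group means were 59.9% to 96.5% of E14 in KAT6B_KO (10 of 12 libraries below) and 65.8% to 94.8% in KAT6AB_KO (6 of 12 below). At day 15 Kat6b was above all E14 libraries (90.2, 93.5 and 105 CPM, counts relative to a library total of 1 M, after TMM scaling) in the library labelled KAT6B_KO replicate 1 (126 CPM) and in the library labelled KAT6AB_KO replicate 3 (107 CPM). The deleted part of either gene is not given in the sources used here, so a count over the whole gene is a weak check of the label.

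Rfx4 was the member that set E14 apart from all 3 knockouts at day 6 as well as at day 15, and in KAT6A_KO and the double knockout only Mir9-3hg stood at a smaller share of its E14 level at day 15. The gene lies at chr10:84591926-84742402 (GRCm39, plus strand, ENSMUSG00000020037). In E14 it was at 1.12, 1.67 and 1.61 CPM at day 0 and 0.497, 0.605 and 0.782 CPM at day 2, and then at 19.9, 5.16 and 9.21 CPM at day 6. Its E14 levels at day 15 were 27.5, 17.6 and 21.1 CPM. All E14 libraries of days 6 and 15 were above all E14 libraries of days 0 and 2, and the ranges of days 6 and 15 overlapped.

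At day 15, Rfx4 was at 2.75, 6.28 and 4.63 CPM in KAT6A_KO. The KAT6B_KO libraries held 6.74, 0.277 and 0.805 CPM. Those of the double knockout held 0.386, 1.96 and 0.297 CPM. Every knockout library was thus below every E14 library, and the KAT6B_KO values ran from the lowest to the highest of all 9 knockout libraries. The means were 20.6%, 11.8% and 4.00% of the E14 mean of 22.1 ± 5.06 CPM (SD, n = 3) in KAT6A_KO, KAT6B_KO and the double knockout. The log2 differences were -2.29 ± 1.03 (SE, edgeR), -3.08 ± 1.07 and -4.64 ± 1.15 in that order. For KAT6A_KO, where a test is given, the edgeR adjusted p was 0.437. That test uses the E14 libraries of day 15, whose levels took part in the choice of members.

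Rfx4 was also lower at day 6 in all 3 knockouts, without passing the test. The KAT6A_KO libraries held 2.08, 2.45 and 4.17 CPM, the KAT6B_KO libraries 4.48, 0.0838 and 0.901 CPM and the double knockout libraries 1.15, 2.30 and 1.01 CPM. None of these 9 libraries reached the lowest E14 library of that day. The log2 differences were -2.01 ± 0.92 for KAT6A_KO (edgeR adjusted p = 0.809), -2.67 ± 0.95 for KAT6B_KO (adjusted p = 0.268) and -2.99 ± 0.96 for the double knockout (adjusted p = 0.397). From day 2 to day 6, Rfx4 rose in E14 by 4.20 ± 0.45 on the log2 scale (edgeR adjusted p = 1.03e-05) and in KAT6A_KO by 1.22 ± 0.40 (adjusted p = 0.0224), a call lost without KAT6A_KO day 2 replicate 1 or 3 or day 6 replicate 3. The same step was 2.04 ± 1.21 in KAT6B_KO (adjusted p = 0.217) and 0.76 ± 0.61 in the double knockout (adjusted p = 0.342). Whether these steps differ between genotypes was not tested.

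Mir9-3hg came on later than Rfx4. The gene lies at chr7:79148856-79184151 (GRCm39, plus strand, ENSMUSG00000097023), and 3 further genes (A330074H02Rik, 2900037B21Rik and Gm37608) overlap it on the same strand, so reads between them may be split. In E14 it was at 2.09, 1.73 and 2.77 CPM at day 0, at 1.32, 1.27 and 1.42 CPM at day 2 and at 0.788, 0.940 and 1.22 CPM at day 6. At day 15 the E14 libraries held 31.7, 17.5 and 18.8 CPM. The E14 levels of day 15 were thus above all 9 earlier E14 libraries.

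At day 15, Mir9-3hg was at 1.10, 3.12 and 3.21 CPM in KAT6A_KO, at 3.68, 0.0692 and 0.992 CPM in KAT6B_KO and at 0.454, 1.36 and 0.237 CPM in the double knockout. The lowest of these, KAT6B_KO replicate 2, rests on 3 reads. The highest knockout library was below the lowest E14 library. The means were 10.9%, 6.96% and 3.02% of the E14 mean of 22.7 ± 7.88 CPM (SD, n = 3). The log2 differences were -3.20 ± 1.04 (SE) in KAT6A_KO, with an edgeR adjusted p of 0.335, -3.85 ± 1.07 in KAT6B_KO and -5.04 ± 1.14 in the double knockout.

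At day 6, before the E14 level had risen, Mir9-3hg was low in every group. The KAT6B_KO libraries (0.485, 0.566 and 0.410 CPM) were all below the E14 libraries, a log2 difference of -1.01 ± 0.44 (edgeR adjusted p = 0.355). In KAT6A_KO the difference was -0.67 ± 0.43 (adjusted p = 0.809), and in the double knockout, at 0.807, 0.810 and 0.686 CPM, it was -0.40 ± 0.43 (adjusted p = 0.860). Both of these groups overlapped E14.

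A second host of miR-9, C130071C03Rik, is in the deposited table. In RefSeq for GRCm38.p6 it spans chr13:83721381-83741308 and holds the hairpin Mir9-2. At day 15 it ranged from 64.1 to 122 CPM in E14, from 5.54 to 24.9 CPM in KAT6A_KO, from 1.08 to 17.1 CPM in KAT6B_KO and from 1.90 to 10.4 CPM in the double knockout. All 9 knockout libraries were below all E14 libraries, and in the double knockout the log2 difference was -3.94 ± 0.99 (edgeR adjusted p = 0.0601). Unlike Mir9-3hg, C130071C03Rik already rose in E14 between days 2 and 6, by 3.15 on the log2 scale. In the double knockout it rose over that step by 4.25.

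**Figure D1:**
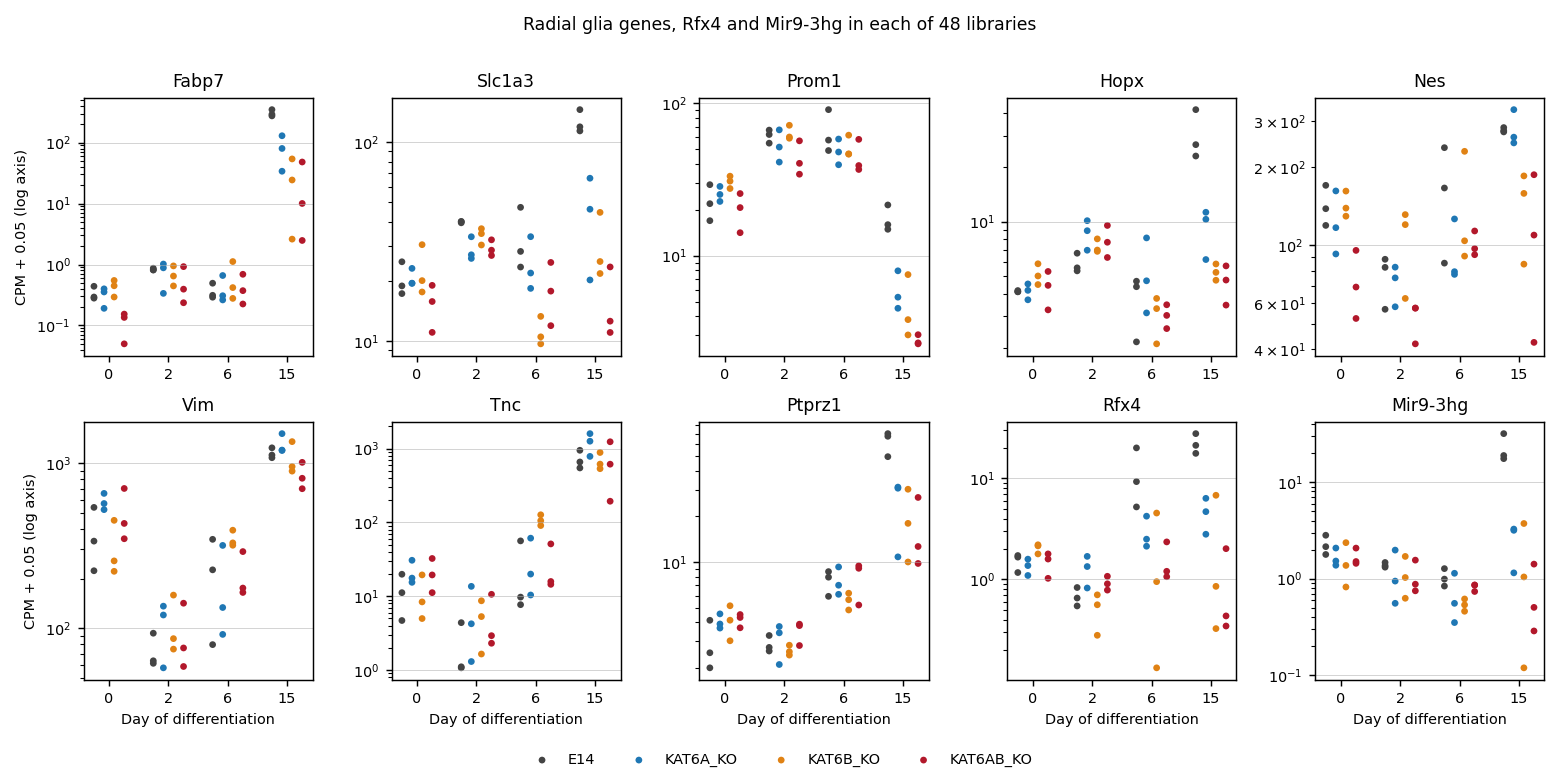
Levels of the 10 genes in each of 48 libraries, as CPM plus 0.05 on a log axis, against the day of differentiation, with 1 point per library and 1 colour per genotype. Rfx4 of E14 stands apart from the knockouts at days 6 and 15, Mir9-3hg, Fabp7, Slc1a3, Prom1, Hopx and Ptprz1 at day 15, and Vim and Tnc overlap between most genotypes.

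The glial genes Fabp7 and Slc1a3 were lower in all knockout libraries of day 15. Fabp7 encodes the brain lipid-binding protein, a fatty acid carrier of radial glia. It lies at chr10:57660977-57664546 (GRCm39, plus strand, ENSMUSG00000019874). Before day 15 it was nearly silent in every genotype, with E14 libraries between 0.231 and 0.819 CPM and no count at all in 1 double knockout library of day 0. At day 15 the E14 libraries held 347, 274 and 291 CPM.

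The KAT6A_KO libraries of day 15 held 33.9, 129.6 and 80.1 CPM of Fabp7, the KAT6B_KO libraries 53.9, 2.56 and 24.3 CPM and the double knockout libraries 9.99, 48.01 and 2.43 CPM. All were below the lowest E14 library, and the libraries of a knockout differed widely among themselves. The means were 26.7%, 8.86% and 6.62% of the E14 mean of 304 ± 38.2 CPM (SD, n = 3). The log2 differences were -1.91 ± 1.08 in KAT6A_KO (edgeR adjusted p = 0.514), -3.49 ± 1.16 in KAT6B_KO and -3.93 ± 1.18 in the double knockout. Their standard errors are the widest of the 10 genes.

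Slc1a3, the glutamate transporter GLAST, lies at chr15:8663608-8740248 (GRCm39, minus strand, ENSMUSG00000005360), where Gm37310 overlaps it on the same strand, and was already present in stem cells. At day 15 it was at 146, 114 and 119.7 CPM in E14. The KAT6A_KO libraries held 20.3, 66.0 and 46.1 CPM, the KAT6B_KO libraries 44.4, 25.1 and 21.9 CPM and the double knockout libraries 12.6, 23.6 and 11.03 CPM. The means were 34.8%, 24.1% and 12.4% of E14, and no knockout library reached the E14 range. The log2 differences were -1.53 ± 0.45 (edgeR adjusted p = 0.320), -2.06 ± 0.46 and -3.02 ± 0.47 in KAT6A_KO, KAT6B_KO and the double knockout.

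Slc1a3 was the member nearest to the threshold at day 6, in KAT6B_KO. There it stood at 13.3, 9.66 and 10.5 CPM against 47.1, 28.3 and 23.6 CPM in E14. The 2 groups did not overlap, and the log2 difference was -1.56 ± 0.32 (edgeR adjusted p = 0.0934).

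Hopx and Prom1 had small errors at day 15. Hopx is an atypical homeodomain protein without DNA binding of its own, found in neural stem cells with astroglial features. It lies at chr5:77234835-77262968 (GRCm39, minus strand, ENSMUSG00000059325), with Hopxos on the other strand. At day 15 it was at 41.7, 23.1 and 26.7 CPM in E14, at 6.12, 11.2 and 10.3 CPM in KAT6A_KO, at 4.69, 5.19 and 5.78 CPM in KAT6B_KO and at 4.70, 5.64 and 3.40 CPM in the double knockout. The KAT6A_KO libraries lay between E14 and the other knockouts without overlap, and KAT6B_KO and the double knockout overlapped. The log2 differences from E14 were -1.74 ± 0.30 in KAT6A_KO (edgeR adjusted p = 0.287), -2.56 ± 0.31 in KAT6B_KO and -2.75 ± 0.32 in the double knockout.

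Prom1, the membrane protein CD133 of progenitors and many epithelia, lies at chr5:44150962-44259374 (GRCm39, minus strand, ENSMUSG00000029086), where Gm42716 and Gm16401 overlap it, and took another course: it was highest in embryoid bodies. In E14 it was at 62.1, 66.4 and 54.5 CPM at day 2 and at 90.4, 48.8 and 57.1 CPM at day 6, and only at 21.4, 15.9 and 14.8 CPM at day 15. At day 15 the KAT6A_KO libraries held 4.47, 7.91 and 5.30 CPM, the KAT6B_KO libraries 7.47, 2.98 and 3.76 CPM and the double knockout libraries 2.63, 2.59 and 2.99 CPM. The differences from E14 were -1.57 ± 0.36 (edgeR adjusted p = 0.287), -1.88 ± 0.36 and -2.68 ± 0.38 on the log2 scale, in the same order. The SD of the double knockout, 0.215 CPM, was the smallest of the 4 groups.

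The intermediate filament genes differed less. Nes encodes nestin and lies at chr3:87878385-87887758 (GRCm39, plus strand, ENSMUSG00000004891). At day 15 it was at 283, 273 and 276 CPM in E14 and at 260.2, 332 and 247 CPM in KAT6A_KO, which overlapped E14 with a mean of 101% of it. KAT6B_KO (185, 84.8 and 158 CPM) and the double knockout (109.6, 187 and 42.5 CPM) were below E14 in all libraries, at -0.97 ± 0.44 and -1.31 ± 0.45 on the log2 scale. Vim, vimentin, lies at chr2:13578738-13587637 (GRCm39, plus strand, ENSMUSG00000026728) and is also abundant in mesenchymal cells. It was at 1116, 1076 and 1235 CPM in E14 and at 808, 1008 and 699 CPM in the double knockout, where it was lower in all libraries by 0.46 ± 0.20 on the log2 scale. The Vim means of KAT6A_KO and KAT6B_KO were 114% and 93.1% of E14.

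At day 0, Nes was lower in the double knockout, and this was the only member call at days 0, 2 and 6. Nes was at 69.2, 52.5 and 95.7 CPM in the double knockout and at 170.0, 138 and 119 CPM in E14. The groups did not overlap, and Nes fell by 1.02 ± 0.21 on the log2 scale (edgeR adjusted p = 0.0293). In this comparison 2.09% of all genes tested were called. The call was lost when E14 replicate 1, or double knockout replicate 1 or 2, was left out, and it was kept in 4 of 6 other settings, whose adjusted p ran from 0.000612 to 0.279.

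The matrix genes were divided. Tnc, the matrix glycoprotein tenascin-C, lies at chr4:63878022-63965252 (GRCm39, minus strand, ENSMUSG00000028364), overlaps 8030451A03Rik on the other strand and is made by mesenchymal as well as glial cells. It was the member with no lower level in any knockout beyond the spread. At day 15 it was at 547, 659 and 949 CPM in E14, at 785, 1260.5 and 1596 CPM in KAT6A_KO, at 617, 535 and 886 CPM in KAT6B_KO and at 615, 1238 and 194 CPM in the double knockout. The double knockout held both the lowest library and one above all E14 libraries, and its log2 difference was -0.09 ± 0.54. At day 6 Tnc was higher in KAT6B_KO, at 105, 127 and 90.6 CPM against 7.62, 9.66 and 56.1 CPM, without overlap. That difference was 2.15 ± 0.88 on the log2 scale and did not pass the test (edgeR adjusted p = 0.350).

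Ptprz1 encodes a receptor tyrosine phosphatase whose extracellular part binds tenascins and pleiotrophin, and it lies at chr6:22875501-23052915 (GRCm39, plus strand, ENSMUSG00000068748). At day 15 it was at 67.5, 70.3 and 49.5 CPM in E14. The KAT6A_KO libraries held 10.7, 31.1 and 30.6 CPM, the KAT6B_KO libraries 30.1, 9.94 and 17.9 CPM and the double knockout libraries 9.72, 26.6 and 12.6 CPM. No knockout library overlapped E14, and the 3 knockouts overlapped each other. The log2 differences were -1.38 ± 0.52 (edgeR adjusted p = 0.390), -1.69 ± 0.53 and -1.95 ± 0.53, with means of 38.7%, 31.0% and 26.1% of E14.

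**Figure D2:**
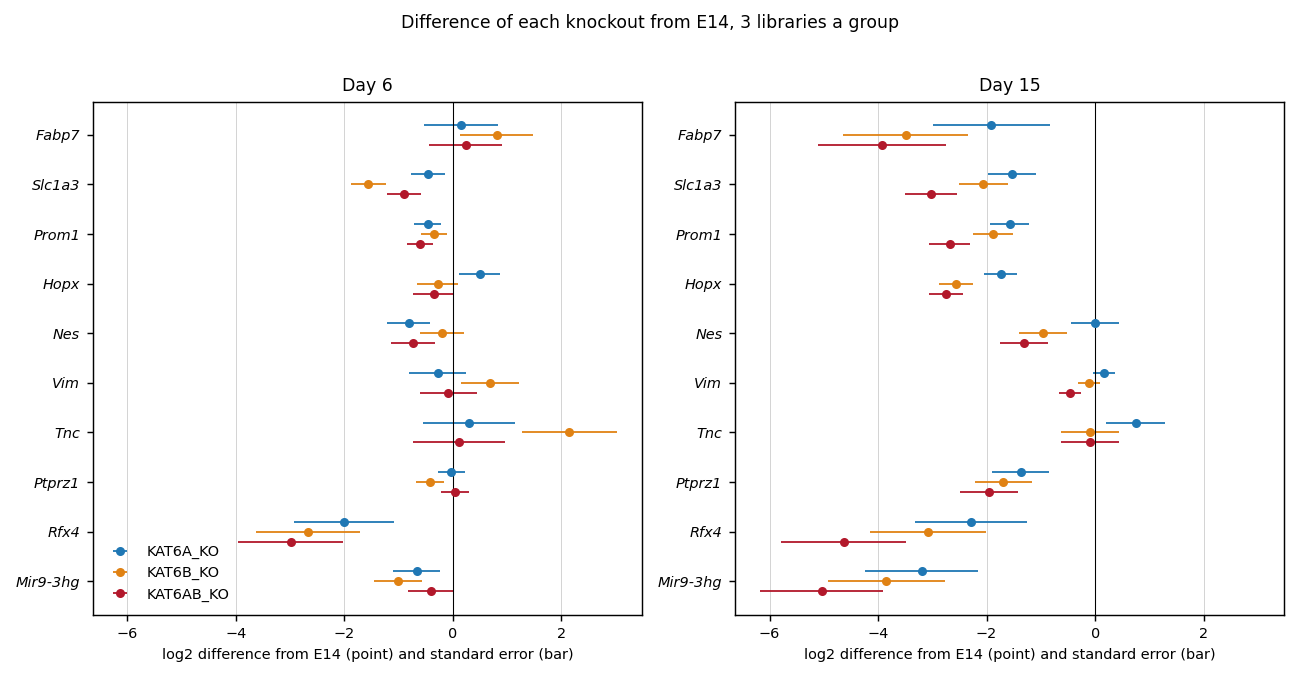
Log2 difference of each knockout from E14 (points) with its standard error (bars) for the 10 genes at day 6 (left) and day 15 (right), 3 libraries per group. At day 15, 7 members lie below 0 in all 3 knockouts and Tnc of the double knockout lies at -0.09, while at day 6 Rfx4, Slc1a3, Prom1, Nes and Mir9-3hg lie below 0 in all 3, Rfx4 the furthest, and Tnc of KAT6B_KO lies at 2.15.

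Counted over the members, the double knockout of day 15 had 9 of 10 without overlap below E14, KAT6B_KO had 8 and KAT6A_KO had 7. Of all genes tested, 20.3%, 15.1% and 12.8% were without overlap below E14 in these comparisons. Calls lower at an adjusted p under 0.05 were made for 4 members in the double knockout (Slc1a3, Prom1, Hopx and Mir9-3hg; 1.32% of all genes), for 1 in KAT6B_KO (Hopx; 0.0395% of all genes) and for none in KAT6A_KO (0% of all genes). The median log2 difference over the 10 members was -2.72 in the double knockout, -1.97 in KAT6B_KO and -1.55 in KAT6A_KO, beside 0.01, 0.05 and 0.01 over all 20229 genes. The first and second of these comparisons chose the members, and that of KAT6A_KO uses the same E14 libraries. Nothing is read from the counts. In KAT6A_KO edgeR called no gene, 2305 genes and 6 members were at an unadjusted p under 0.05, and DESeq2 called 335 genes with 4 members among them.

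The day 15 calls of the double knockout and KAT6B_KO changed when any 1 library was left out, which also makes its group smaller. In the double knockout, leaving out any 1 of 6 libraries gave 0 to 2 called members and 0 to 102 called genes in place of 4 and 643: 2 members (Prom1 and Hopx) without double knockout replicate 3, 1 (Hopx) without E14 replicate 2 and 0 otherwise. In KAT6B_KO, leaving out the library labelled KAT6B_KO replicate 1 raised the calls from 1 to 6 members and from 15 to 1949 genes, leaving out replicate 2 gave 0 of both, and leaving out any other library gave 0 members and 2 to 3 genes. The libraries of a group ranked alike over many members: the one labelled KAT6B_KO replicate 1 was the highest of its group for 8 members and KAT6B_KO replicate 2 the lowest for 8, double knockout replicate 2 was the highest for 9 and replicate 3 the lowest for 8, and KAT6A_KO replicate 1 was the lowest for 9. Where a gene marks one kind of cell in a mixed culture, fewer such cells and less of the RNA per cell cannot be told apart.

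The label was set against other genes of the same cells and against markers of other cells. These lists were chosen with earlier results of these data known. Of 21 further radial glia and neural stem cell genes, among them Pax6, Sox2, Sox9, Hes5 and Notch1, the summed level at day 15 was 1322 to 1586 CPM in E14, 857 to 1086 CPM in KAT6A_KO, 608 to 994 CPM in KAT6B_KO and 634 to 795 CPM in the double knockout. In E14 this sum was already 1012 to 1233 CPM at day 0 and 971 to 999 CPM at day 2. In the double knockout at day 15, 6 of the 20 tested fell and none rose, with a median of -1.82. Of all genes, 1.32% were called lower in this comparison. No gene was called without E14 replicate 1 or 3 or double knockout replicate 1 or 2, nor with the replicate block. The changes of largest size were those of Hes5, a Notch target and repressor of neurogenesis (20.5 ± 9.09 CPM in E14 and 0.606 ± 0.462 CPM in the double knockout, SD, n = 3, log2 -5.07 ± 0.77, edgeR adjusted p = 0.0218), of the membrane protein Ttyh1 (log2 -3.40 ± 0.72, adjusted p = 0.0383) and of the progenitor factor Sox2 (log2 -3.04 ± 0.35, adjusted p = 0.0182). In KAT6B_KO 1 of 20 fell, Sox2 (log2 -2.67 ± 0.35, edgeR adjusted p = 0.0295), with a median of -1.18. Of all genes, 0.0395% were called lower there, and none was called without KAT6B_KO replicate 2. In KAT6A_KO none passed the test, 17 of 20 were lower and the median was -0.72.

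Markers of other cells moved beside the members at day 15, and the calls among them depended on single libraries as above. The sum of 10 neuron markers was 1589 to 2852 CPM in E14, 389 to 1578 CPM in KAT6A_KO, 70.6 to 1071 CPM in KAT6B_KO and 161 to 991 CPM in the double knockout, with 10 of 10 lower in each knockout and 0 called. The sum of 7 astrocyte markers was 316 to 574 CPM in E14, 153 to 233 CPM in KAT6A_KO, 164 to 193 CPM in KAT6B_KO and 112 to 145 CPM in the double knockout. There 2 of 5 tested fell, the water channel gene Aqp4 by 4.74 ± 0.95 and the folate enzyme gene Aldh1l1 by 2.64 ± 0.54 on the log2 scale (edgeR adjusted p = 0.0319 and 0.0353). The astrocyte sum of E14 was already 279 to 340 CPM at day 0 and 537 to 750 CPM at day 2, so it is not particular to day 15. The sum of 8 mesenchyme and fibroblast markers was 1274 to 4024 CPM in E14, 1894 to 6406 CPM in KAT6A_KO, 4079 to 18137 CPM in KAT6B_KO (the highest in the library labelled replicate 1) and 7053 to 7999 CPM in the double knockout, with 8 of 8 genes higher in KAT6B_KO and the double knockout and 0 called.

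Endoderm markers (7 genes) summed to 593 to 906 CPM in E14 and to 1299.5 to 1541 CPM in the double knockout, endothelium markers (5 genes) to 70.9 to 150.0 CPM and 246 to 283 CPM, and oligodendrocyte lineage markers (6 genes) to 308 to 481 CPM and 614 to 928 CPM. None of these was called. Smooth muscle and cell division markers overlapped between E14 (375 to 756 CPM and 717 to 906 CPM) and the double knockout. The smooth muscle sum was above every E14 library in KAT6A_KO (1118 to 1717 CPM) and KAT6B_KO (766 to 992 CPM). The cell division sum was below every E14 library in KAT6A_KO (617 to 671 CPM) and overlapped E14 in KAT6B_KO. The 6 stem cell markers summed to 185 to 323 CPM in E14 and 373 to 483 CPM in the double knockout. Of them, Klf4 rose (log2 1.35 ± 0.32, edgeR adjusted p = 0.0498) and the other 5 were lower without passing the test. No list held a gene at 0 in all libraries of a group at day 15. The part of these markers in the values of the members was not tested.

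**Figure D3:**
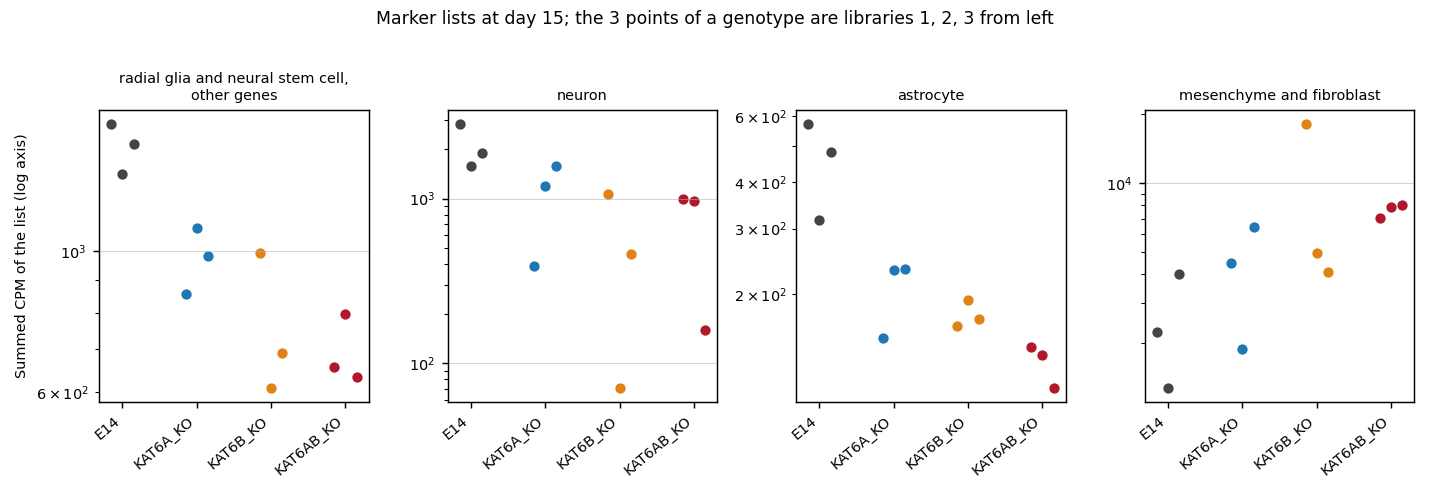
Summed CPM (log axis) of 4 marker lists at day 15 for each genotype, with the 3 points of a genotype as libraries 1, 2 and 3 from the left. The sums of the other radial glia genes and of the astrocyte markers are lower in every knockout library than in every E14 library, and those of the mesenchyme markers are higher in every KAT6B_KO and double knockout library.

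The step from day 6 to day 15 shows how far each genotype went. In E14, 9 of the 10 genes were higher and Prom1 was lower at day 15, values that took part in the choice of members. The largest of these steps on the log2 scale were those of Fabp7 (9.86 ± 0.22), Tnc (4.89 ± 0.79) and Mir9-3hg (4.52 ± 0.31). Ptprz1 (3.08 ± 0.25), Hopx (3.07 ± 0.30), Vim (2.41 ± 0.42), Slc1a3 (1.96 ± 0.22), Rfx4 (0.96 ± 0.37) and Nes (0.78 ± 0.28) followed, and Prom1 stood at -1.90 ± 0.24. Of all genes tested in E14, 27.3% rose and 27.3% fell over this step.

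In KAT6A_KO 8 members rose and 1 fell, where 28.4% of all genes rose and 26.9% fell. Fabp7 rose by 7.84 ± 0.61 on the log2 scale (edgeR adjusted p = 4.12e-07), Tnc by 5.37 ± 0.80, Vim by 2.88 ± 0.41 and Mir9-3hg by 2.03 ± 0.58 (adjusted p = 0.00897). Smaller steps were those of Ptprz1 (1.76 ± 0.36), Nes (1.61 ± 0.23), Slc1a3 (0.89 ± 0.33) and Hopx (0.86 ± 0.33, adjusted p = 0.0416). The Slc1a3 and Hopx calls were each lost without KAT6A_KO day 15 replicate 2 or 3 or day 6 replicate 1 or 3. Prom1 fell by 2.99 ± 0.24 (adjusted p = 4.50e-07), and Rfx4, at 0.70 ± 0.38, did not pass the test (adjusted p = 0.137).

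In KAT6B_KO 6 members rose and 1 fell, where 22.4% of all genes rose and 22% fell. Its day 15 libraries took part in the choice of members, so these steps and their adjusted p are a description. Those that rose were Fabp7 (5.55 ± 0.95, edgeR adjusted p = 0.000671), Tnc (2.65 ± 0.53), Ptprz1 (1.79 ± 0.35), Vim (1.61 ± 0.31), Slc1a3 (1.44 ± 0.28) and Hopx (0.80 ± 0.27), the last lost without KAT6B_KO day 15 replicate 2 or 3 or day 6 replicate 1 or 2. Prom1 fell by 3.46 ± 0.29 (adjusted p = 6.38e-06). Mir9-3hg, at 1.65 ± 0.91, and Rfx4, at 0.47 ± 1.13, did not pass the test (adjusted p = 0.163 and 0.763). Without the library labelled KAT6B_KO replicate 1 of day 15, the Rfx4 value was -1.66.

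In the double knockout 4 members rose and 1 fell, where 26.7% of all genes rose and 28.5% fell. Here too the day 15 libraries took part in the choice of members, so steps and adjusted p are a description. Fabp7 rose by 5.70 ± 1.01 (edgeR adjusted p = 0.00039), Tnc by 4.67 ± 0.80, Vim by 2.02 ± 0.34 and Ptprz1 by 1.08 ± 0.35 (adjusted p = 0.0171), and Prom1 fell by 3.99 ± 0.27 (adjusted p = 1.65e-07). The Ptprz1 call was lost without double knockout day 15 replicate 2 or day 6 replicate 1. Hopx stood at 0.65 ± 0.28 (adjusted p = 0.0626). Slc1a3 at -0.18 ± 0.31 (adjusted p = 0.643), Mir9-3hg at -0.12 ± 0.54 (adjusted p = 0.869) and Rfx4 at -0.70 ± 0.61 (adjusted p = 0.347) had no step beyond their error. Their double knockout libraries of days 6 and 15 overlapped.

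**Figure D4:**
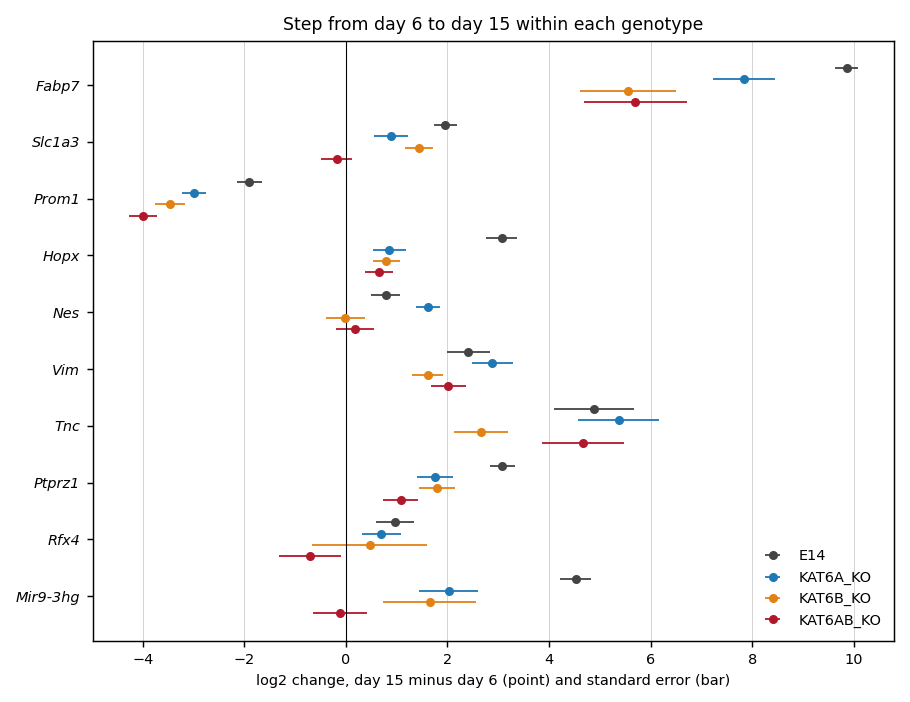
Log2 change from day 6 to day 15 (points) with its standard error (bars) for the 10 genes in each genotype, from 3 libraries per day. Fabp7, Vim and Tnc lie above 0 and Prom1 below 0 in all 4 genotypes, while Mir9-3hg lies at 4.52 in E14 and at -0.12 in the double knockout.

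The difference of this step between a knockout and E14 was computed in 1 model per knockout. In the double knockout it was called lower for Mir9-3hg (-4.63 ± 0.70 on the log2 scale), Hopx (-2.41 ± 0.45) and Prom1 (-2.08 ± 0.35), where 0.558% of all genes were called lower. Fabp7 (-4.20 ± 1.37), Slc1a3 (-2.13 ± 0.48), Ptprz1 (-1.99 ± 0.48) and Rfx4 (-1.65 ± 0.92) were lower without a call. The contrast contains the day 15 difference that chose the members, so these values are a description. Leaving out 1 of the 12 libraries gave 0 to 6 called members. None was left without double knockout day 15 replicate 1, double knockout day 6 replicate 2 or 3, E14 day 15 replicate 1 or 3, or E14 day 6 replicate 2, and 6 were called without double knockout day 15 replicate 2.

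The same difference for Mir9-3hg was -2.89 ± 1.18 in KAT6B_KO, where 0% of all genes were called lower, and -2.53 ± 0.69 in KAT6A_KO (edgeR adjusted p = 0.509), where 0.00951% were. No member was called in either. For KAT6B_KO edgeR called no gene in either direction, while 2842 genes were at an unadjusted p under 0.05 and DESeq2 called 908.

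Before day 15 the members had separate courses in E14. From day 0 to day 2, Fabp7 rose by 1.48 ± 0.28 on the log2 scale (edgeR adjusted p = 0.00292), Prom1 by 1.41 ± 0.24 (adjusted p = 0.00177) and Slc1a3 also rose, while Nes, Vim and Tnc fell, Vim by 2.35 ± 0.42 (adjusted p = 0.00252). Of all genes 9.5% rose and 12.1% fell over this step. From day 2 to day 6 Rfx4, Tnc (3.52 ± 0.79, adjusted p = 0.00297), Vim, Ptprz1 (1.44 ± 0.25, adjusted p = 0.000428) and Nes rose and Fabp7 fell by 1.21 ± 0.25 (adjusted p = 0.00143), where 22.1% of all genes rose and 19.7% fell. Mir9-3hg and Hopx passed the test in neither of these steps. The Fabp7 steps lay near the floor, with E14 means of 0.288, 0.784 and 0.316 CPM at days 0, 2 and 6. Each of its 2 calls was kept in 5 of 6 other settings.

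Across days 0, 2 and 6, the knockouts differed from E14 in Nes at day 0 alone among the calls. The share of all genes called in either direction was also small, and largest in the double knockout of day 0. At day 0 it was 0% in KAT6A_KO, 0.0106% in KAT6B_KO and 2.09% in the double knockout. At day 2 it was 0.0102% in KAT6A_KO, 0% in KAT6B_KO and 1.12% in the double knockout. At day 6 it was 0% in KAT6A_KO, 0.0292% in KAT6B_KO and 0.0682% in the double knockout. Where edgeR called none, the genes at an unadjusted p under 0.05 numbered 898 for KAT6A_KO at day 0, 798 for KAT6B_KO at day 2 and 1089 for KAT6A_KO at day 6, and DESeq2 called 7, 23 and 3 genes. At day 0, Hopx and Rfx4 were above E14 without overlap in KAT6B_KO, as were 8.17% of all genes, and Nes and Fabp7 were below it in the double knockout, as were 7.3%. Slc1a3 was at 40.0, 39.9 and 39.4 CPM in E14 at day 2 and lower without overlap in all 3 knockouts, by 0.47 ± 0.14 on the log2 scale in KAT6A_KO (edgeR adjusted p = 0.414), 0.23 ± 0.13 in KAT6B_KO (adjusted p = 0.99978) and 0.47 ± 0.14 in the double knockout (adjusted p = 0.122). Of all genes 10.2%, 4.64% and 9% were below E14 without overlap in these. Hopx was above E14 without overlap at day 2 in KAT6A_KO and KAT6B_KO, as were 9.96% and 4.95% of all genes. At day 6, 1 member was without overlap below E14 in KAT6A_KO (Rfx4), 3 in KAT6B_KO (Rfx4, Mir9-3hg and Slc1a3) and 1 in the double knockout (Rfx4), where 5.03%, 9.31% and 4.78% of all genes were. In KAT6B_KO Tnc alone of the 10 was above E14 without overlap, as were 8.06% of all genes.

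The knockouts were set against each other at day 15 for the 10 genes, 30 differences in all, and none was called. The libraries of KAT6B_KO and the double knockout are those whose difference from E14 chose the members, so the counts are a description and nothing is read from them. The double knockout was below KAT6A_KO for 10 of 10 members, with 5 of them without overlap (Prom1, Hopx, Nes, Vim and Rfx4), where 5.04% of all genes were lower without overlap and 0.00494% were called. Rfx4 differed by -2.35 on the log2 scale (95% interval -4.41 to -0.29) and Hopx by -1.01 (-1.60 to -0.42). Between the double knockout and KAT6B_KO, 9 of 10 members were lower, 0 of them without overlap, and Hopx differed by -0.19 (-0.77 to 0.40). KAT6B_KO was below KAT6A_KO for 10 of 10 members, with 2 without overlap (Hopx and Nes), where 2.83% of all genes were. In the last 2 comparisons edgeR called no gene (0% and 0%), while 945 and 780 genes were at an unadjusted p under 0.05 and DESeq2 called 77 and 33. The intervals are wide, and a missing call does not show that the genotypes were alike.

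Levels were compared between genes only per length. In E14 at day 15, CPM per kilobase of exon were 243 ± 30.6 (SD, n = 3) for Fabp7 and 241 ± 17.4 for Vim, which overlapped, then 92.4 ± 26.7 for Tnc and 43.2 ± 0.853 for Nes. Hopx (20.1 ± 6.53) and Slc1a3 (14.8 ± 2.00) overlapped each other, as did Mir9-3hg (5.195 ± 1.81) with Rfx4 (4.67 ± 1.07) and Rfx4 with Ptprz1 (4.38 ± 0.792). Prom1 was lowest, at 2.42 ± 0.494.

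Genes with the course most like that of Rfx4 over the 16 group means, by Pearson correlation of log2 CPM among 12334 genes, were Celsr2 (0.885), Sema5b (0.862), Wscd1 (0.858), Prdm16 (0.852) and Draxin (0.821). Those most like Mir9-3hg were Igfbpl1 (0.936), Sall3 (0.933), Adgrg1 (0.919), Pou4f1 (0.911) and Shisa7 (0.904). Rfx4 and Mir9-3hg had a correlation of 0.668 with each other, and Prom1 had -0.06 with Rfx4 and -0.11 with Mir9-3hg. The group means share the day of differentiation and genotype, so these are descriptions.

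Genes tied to the members by role were also followed in the double knockout at day 15, a comparison whose calls depended on single libraries. There 1.32% of all genes were called lower. Of 8 tested members of the RFX family and its cofactors other than Rfx4, 2 fell, Rfx3 by 1.10 ± 0.24 and Rfx2 by 1.04 ± 0.21 on the log2 scale (edgeR adjusted p = 0.0421 and 0.0342), and the median was -0.22. Of 9 cilium assembly genes none was called, and the median was -0.01. Of 7 tested textbook targets of miR-9 none was called, 4 were higher and 3 lower, with a median of 0.30. Of 8 partners of Ptprz1 and tenascins, among them pleiotrophin (Ptn) and midkine (Mdk), none was called in any knockout, and the median in the double knockout was -0.22. Their summed level was nonetheless above E14 (1369 to 1514 CPM) in every knockout library, at 1730.4 to 1828 CPM in KAT6A_KO, 1572 to 2016 CPM in KAT6B_KO and 1590.3 to 2014 CPM in the double knockout. Among 8 intermediate progenitor and neurogenic genes, the zinc finger factor Insm1 fell by 3.01 ± 0.62 and Hes6 by 1.19 ± 0.23 on the log2 scale (edgeR adjusted p = 0.0349 and 0.0284). The summed level of these 8 genes did not set the groups apart. It was 284 to 368 CPM in E14 and 263 to 332 CPM in the double knockout. In KAT6A_KO it was 273 to 371 CPM and in KAT6B_KO 211 to 448 CPM. In KAT6A_KO and KAT6B_KO neither Insm1 nor Hes6, nor any gene of the RFX, cilium, miR-9 target and Ptprz1 partner lists, was called at day 15.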

How the data were processed

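RNA was measured in 48 libraries. The authors deposited 1 table of raw counts per gene, whole numbers from reads aligned with HISAT2 to GRCm39 per the submitters' processing notes. Not given in the sources used here are the counter, whether it used strand, the gene annotation and the aligner's version, so overlapping genes may share reads. Of 36983 entries, 48 were dropped as repeats of an identifier. Groups follow the sample titles, and no column of another sample was found (0).

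Counts were fitted with edgeR 4.0.16 (limma 3.58.1, R 4.3.3): filterByExpr (minimum count 10, minimum total 15), TMM scaling, and robust quasi-likelihood tests adjusted over all genes by the Benjamini-Hochberg method, with calls under 0.05. The 12 libraries of a day gave the comparisons between genotypes, the 12 of a genotype gave the steps between days, and the 12 of a knockout and E14 at days 6 and 15 gave the difference of steps. CPM are TMM-scaled, and log2 CPM use a prior count of 2. Intervals of 95% use 1.96 standard errors. The tests were checked on simulated data. Alternatives were RLE scaling, no filter, a filter of 1 CPM in 3 libraries, DESeq2 1.42.0, a replicate block, all 48 libraries in 1 fit, and leaving out each library. Exon lengths are from GENCODE M21, and promoters and miR-9 sequences from RefSeq for GRCm38.p6, matched by symbol for 10 of 10 members.

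The members and lists were chosen with earlier results of these data known. All 10 members are named. From each list at most 3 called genes per comparison are named, by size of change, and otherwise the list is given by counts and median. The result of 1 listed gene is not reported here. For likeness, the 5 genes with the highest correlation and a mean of at least 5 CPM are named. A p is left out for comparisons that chose members. Library totals were 22.5 to 72.3 M counts, and the biological coefficient of variation within a day was 19.3% to 37.8%.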

Additional observations from a re-analysis of the deposited data

Results flagged for a closer look

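The step from day 6 to day 15 differed between the double knockout and E14 for 3 of the 10 genes, by the interaction term of the edgeR fit over the 12 libraries of both genotypes at both days. The differences of steps, double knockout minus E14 on the log2 scale, were -4.63 for Mir9-3hg, -2.41 for Hopx and -2.08 for Prom1. Prom1 was lower at day 15 than at day 6 in both genotypes, and by more in the double knockout, Hopx and Mir9-3hg were higher at day 15 in E14, and Mir9-3hg had no step beyond its error in the double knockout. The contrast contains the day 15 levels that chose the members, so these values are a description and support nothing.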

How the results depend on the processing

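Of 97 values of single genes given in the text, recomputed under 1218 alternatives in all, 1058 recomputed values kept direction and side of the threshold, 95 lost the call, 57 gained it and 8 turned sign. RLE scaling moved the median of all genes by at most 0.05 on the log2 scale. Member calls of the knockouts against E14, summed over the 12 comparisons, numbered 6, and 22 with DESeq2, 21 with all 48 libraries in 1 fit, 2 with a replicate block and 1 to 11 when 1 library was left out. Between knockouts they numbered 0, and 3 with DESeq2, 1 with all 48 libraries and 0 to 1 with 1 library left out. Steps between days gave 63 calls, 55 to 68 under the other settings and 59 to 65 with 1 library left out. The differences of steps gave 3 calls, and 10 with DESeq2, 9 with all 48 libraries, 6 with a replicate block and 0 to 8 with 1 library left out. At day 15 all genes called in the double knockout numbered 643, and 536 with RLE, 473 without a filter, 646 with the CPM filter, 2726 with DESeq2, 4397 with all 48 libraries and 0 with the replicate block. For KAT6B_KO they numbered 15, and 1841 with DESeq2, 3186 with all 48 libraries and 0 with the block, and for KAT6A_KO 0, and 335, 730 and 0. Same-numbered libraries deviated together, with r over 0.1, in 37 of 72 pairs (r from -0.604 to 0.707). The highest r was that of replicate 3 of E14 and KAT6A_KO at day 6. The lowest was that of replicate 2 of KAT6B_KO and the double knockout at day 15. With the replicate block, all genes called for KAT6B_KO against E14 at day 6 went from 6 to 371. Whether a number stands for a shared batch is not given by the labels, and the main fits do not pair by it. The sign turned with 1 library left out, over ranges of -0.84 to 0.36 for Tnc of the double knockout at day 15, -1.66 to 2.39 for the Rfx4 step of KAT6B_KO, and -0.59 to 0.10 for Slc1a3 and -1.12 to 0.29 for Mir9-3hg in the step of the double knockout. The cause was not tested. DESeq2 gave no adjusted p for 9 values of members, and the CPM filter left 18 untested. Counting error is wide in the lowest libraries of Fabp7, Mir9-3hg and Rfx4, at 0, 3 and 4 counts.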
